A study of Homo sapiens with 12 samples.

Results

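The 10 genes of the S6K, RSK, MSK and MNK kinases were read in ribosome footprints (RF) and total RNA of PANC-1 cells. The PANC-1 line was established from a human pancreatic cancer. The genes were chosen by name, as the families of RPS6KB1, RPS6KA1 and MKNK2, and all 10 were found among the 20212 protein-coding genes of the count table. RPS6KB1, RPS6KB2, RPS6KA1 and MKNK2 had been picked out by the study on these same libraries, so their directions are not independent evidence. The control cells received DMSO, the solvent, and the treated cells received 50 nM rapamycin for 60 min, with 3 replicates of each treatment. Each replicate number has 1 RF and 1 total RNA library. The labels do not say that both came from the same cells, which was assumed where they were paired. All cells were the same unmodified line, which the study describes as lacking the 4EBP1 protein, so the data describe 1 cell line of that kind. The labels number the replicates without saying how they were kept apart, so p-values measure only the spread between these samples, which may be technical.

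These kinases link growth factor and nutrient signals to protein synthesis. S6 kinases are switched on by the mTORC1 complex, which rapamycin inhibits, and they phosphorylate ribosomal protein S6 and other translation factors. RSK and MSK kinases each carry a pair of kinase domains and act below the ERK and p38 MAP kinases, RSKs on S6 and many cytosolic proteins and MSKs on chromatin and CREB. MNK kinases are also switched on by ERK and p38 and phosphorylate eIF4E, the protein that binds the mRNA cap. mRNAs that are most sensitive to mTORC1 often start with a 5′ terminal oligopyrimidine (TOP) tract, a C followed by an unbroken run of C or T.

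The annotated 5′ ends of the kinase mRNAs are shown because TOP mRNAs are defined by these bases. Each line gives the first 20 bases, 5′ to 3′ on the transcript strand, of the full-length coding isoform with the highest total RNA level, with its place in GRCh37, and capitals mark an unbroken pyrimidine run that starts at the first base.
RPS6KB1-201 (chr17:57970482-57970501, + strand): gcactgagcctaagcagccg
RPS6KB2-201 (chr11:67195965-67195984, + strand): agtcagtgcgcggccaggta
RPS6KA1-204 (chr1:26856252-26856271, + strand): gaagtgctagtgccgcggcg
RPS6KC1-202 (chr1:213224583-213224602, + strand): gacccggaagcagagctgtg
MKNK1-203 (chr1:47069921-47069940, - strand): CTagcaccgcctcttccgcg
MKNK2-202 (chr19:2051204-2051223, - strand): ggcccaggtagaggggtccg
MKNK1 was the only one of the 10 genes whose isoform started with a pyrimidine, and its run was 2 bases long. A C followed by at least 4 pyrimidines, searched on the transcript strand only, stood at the start of 0 of the 10 kinase mRNAs and of 555 of 12779 genes (4.34%). These are starts of an annotation whose version differs from the one the authors used, and the starts used in these cells were not measured here. Isoforms that could not be matched to it held 40.7% of the MKNK2 level, 45.4% of that of RPS6KA3 and 47.4% of that of RPS6KA5. Their starts were not read.

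The RF libraries were shallow. Their counts summed to between 278835 and 1574723 per library, against 78081241 to 94293744 in total RNA, and the limit that a count of 0 allows (3 counts) lay at 1.91 to 10.8 CPM (counts scaled to library size) in RF and at or under 0.0384 CPM in total RNA. Reads carry no molecular identifiers, so these limits cover counting error only. DMSO RF replicate 2 stood apart, with Pearson's r of log2 CPM across genes of 0.729 to 0.789 with the other 5 RF libraries, against 0.790 to 0.884 among those 5. DMSO RNA replicates 1 and 2 stood apart from the other 4 RNA libraries in the same way, with r of 0.977 to 0.983 between the 2 sets and 0.993 to 0.997 within them. Summed over the 10 genes, the kinases held 303 to 384 CPM in RF and 716 to 746 CPM in total RNA. CPM of genes are scaled by library size and TMM. The label of the cells as pancreatic duct was read against its markers. The keratins KRT8, KRT18 and KRT19 lay between 1979 and 3654 CPM in every RNA library, and SOX9 between 83.0 and 93.9 CPM. KRT7, EPCAM and MUC1 were each below 9 CPM. The acinar, endocrine and endothelial markers measured summed to at most 0.711, 0.556 and 0.517 CPM. Of the immune markers CD68 lay at 105 to 121 CPM and PTPRC at 0.626 CPM or less, and the fibroblast markers summed to at most 5.91 CPM.

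Translation efficiency (TE) is the RF level of a gene relative to its total RNA. Its change was tested as the interaction between treatment and library type (edgeR, quasi-likelihood), on the 13329 genes that had 10 or more counts in the RF libraries together and 10 or more in the RNA libraries together. RPS6KA5, with 4 RF counts in all, did not reach that minimum, so 9 of the 10 kinase genes were tested. None of the 9 passed an adjusted p of 0.05 in TE, and neither did any other gene tested (0%). At an unadjusted p below 0.05, 2 of the 9 were lower in rapamycin-treated cells (RPS6KB1 and RPS6KB2), where 6.42% of all genes tested were, and 3 were higher (MKNK2, RPS6KC1 and RPS6KA1), where 6.17% were. 4 of these 5 were among the genes the study had picked, and RPS6KC1 was not. DESeq2's Wald test of the same design called 4 of the 9, RPS6KB1 and RPS6KB2 lower, where 4.37% of all genes tested were, and RPS6KC1 and MKNK2 higher, where 4.91% were. limma voom called 0 of the 9 and 0 of all genes tested. RPS6KB1 was lower there at an unadjusted p below 0.05, as were 3.74% of all genes. RPS6KA1 and MKNK2 were higher at that p, as were 3%. The count of 5 stands against 12.6% of all genes tested in either direction. It was 2 without rapamycin replicate 1, where 9.65% of all genes were below that p, and 3 without rapamycin replicate 3, where 9.06% were. It was 2 without DMSO RNA replicates 1 and 2, where 2.99% were, and 5 without DMSO replicate 2, where 13.8% were. On simulated counts in which RF varied more than total RNA, this TE test called unchanged genes more often than its threshold allows, so its p-values may be too small. RF alone, tested in edgeR, gave an unadjusted p of 0.2151 for RPS6KC1, 0.1496 for RPS6KA1 and 0.08262 for RPS6KB2. It gave 0.00957 for RPS6KB1 and 0.0119 for MKNK2. The SEs of RPS6KC1, RPS6KA1 and RPS6KB2 were 0.607, 0.703 and 0.413 in TE and 0.978, 0.905 and 0.518 in RF. MKNK1 alone among the 9 had the larger SE in TE, 0.454 against 0.428 in RF. In bulk samples such as these, a change in every cell and a change in the share of cells that use a gene cannot be told apart.

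**Figure D1:**
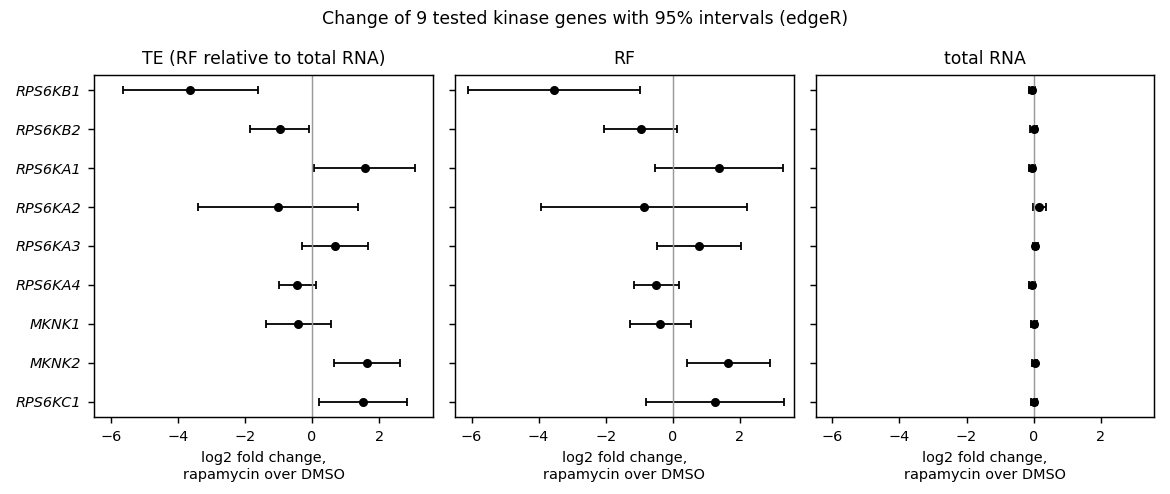
Log2 fold change, rapamycin over DMSO, of the 9 tested kinase genes (points) with 95% intervals (bars) in TE, in RF and in total RNA, from edgeR. In TE the intervals of RPS6KB1, RPS6KB2, RPS6KA1, MKNK2 and RPS6KC1 leave out 0, though TE intervals may be too narrow. In total RNA all points lie between -0.05 and 0.17.

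The S6 kinases had lower RF levels in rapamycin-treated than in control cells. RPS6KB1 (S6K1; ENSG00000108443, chromosome 17, 57970407 to 58027935), a kinase of ribosomal protein S6, gave 5, 32 and 17 RF counts in DMSO replicates 1, 2 and 3, or 15.4, 40.2 and 11.5 CPM. In rapamycin replicates 1, 2 and 3 it gave 0, 4 and 0 counts, the middle one at 4.84 CPM. All 3 treated libraries lay below all 3 control libraries, and the control spread came mostly from DMSO replicate 2, the library that stood apart. The means were 22.4 ± 15.6 CPM in DMSO and 1.61 ± 2.79 CPM in rapamycin (SD, n = 3). The log2 fold change was -3.55 in RF (SE 1.21, unadjusted p = 0.00957, adjusted p = 0.9999, edgeR) and -3.63 in TE (SE 0.94, unadjusted p = 0.00166, adjusted p = 0.231), the latter with a 95% interval of -5.64 to -1.62. Pooled over libraries without TMM, 19.6 CPM in DMSO stood against 1.72 CPM in rapamycin, an 11.4-fold difference that rests on 4 treated counts. Without rapamycin replicate 2, all treated counts were 0, and the DMSO level was at least 10.0-fold higher than the limit of 3 counts over those libraries. Without DMSO replicate 3 the log2 fold change in TE was -4.20 and the adjusted p was 0.0207 (edgeR). In that setting 374 of all 13329 genes were called lower and 70 higher, and 22.8% had an unadjusted p below 0.05. Without DMSO replicate 2 the log2 fold change of RPS6KB1 in TE was -2.81 with an adjusted p of 0.207.

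RPS6KB2 (S6K2; ENSG00000175634, chromosome 11, 67195931 to 67202872), the other S6 kinase, was more even between control libraries. It reached 55.4, 49.0 and 52.3 CPM of RF in DMSO replicates 1, 2 and 3, from 18, 39 and 77 counts, and 15.8, 41.1 and 23.3 CPM in rapamycin replicates 1, 2 and 3, from 19, 34 and 7 counts. The groups did not overlap, with rapamycin replicate 2 nearest to the controls. The means were 52.2 ± 3.18 and 26.7 ± 13.0 CPM (SD, n = 3), and the log2 fold change in TE was -0.97 (SE 0.41, unadjusted p = 0.0339, adjusted p = 0.358, edgeR). Leaving out a replicate moved it between -1.53 (without rapamycin replicate 2) and -0.61 (without rapamycin replicate 1). Its exons share 470 bases with RPS6KB2-AS1 on the opposite strand, and those of RPS6KB1 share 149 bases with a readthrough gene on the same strand. Whether the counting used strand is not given in the sources used here, so reads on these bases cannot be told apart.

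The S6 kinases were also set against each other within each library. On a log2 scale with a prior count of 2, which moves the ratio more in a shallow library, RPS6KB1 over RPS6KB2 was -1.51, -0.27 and -2.06 in DMSO replicates 1, 2 and 3 and -3.39, -2.58 and -2.17 in rapamycin replicates 1, 2 and 3. Every treated library lay below every control library, though rapamycin replicate 3 and DMSO replicate 3 were close. RPS6KB1 had 0 counts in rapamycin replicates 1 and 3, so the ratios there are set by the prior count and the RPS6KB2 counts. The means differed by -1.44 (two-sided exact permutation p = 0.1, the lowest value that 3 against 3 can give, and 0.4 after Benjamini-Hochberg adjustment over 4 kinase pairs). The difference was -2.65 with a prior count of 0.5 and -0.93 without DMSO replicate 2. In the other pairs, RPS6KA1 over RPS6KA3, RPS6KA4 over RPS6KA5 and MKNK1 over MKNK2, the groups overlapped and the mean log2 ratios differed by 0.94, -0.58 and -1.98 (exact permutation p of 0.3 to 0.5). Without DMSO replicate 2 these differences were 0.21, -0.16 and -0.92, and that of RPS6KA1 over RPS6KA3 was 1.53 with a prior count of 0.5. RPS6KA5 had at most 1 RF count in any library. The RPS6KA4 over RPS6KA5 ratio is therefore set by the prior count and the raw RPS6KA4 counts, which depend on library depth.

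**Figure D2:**
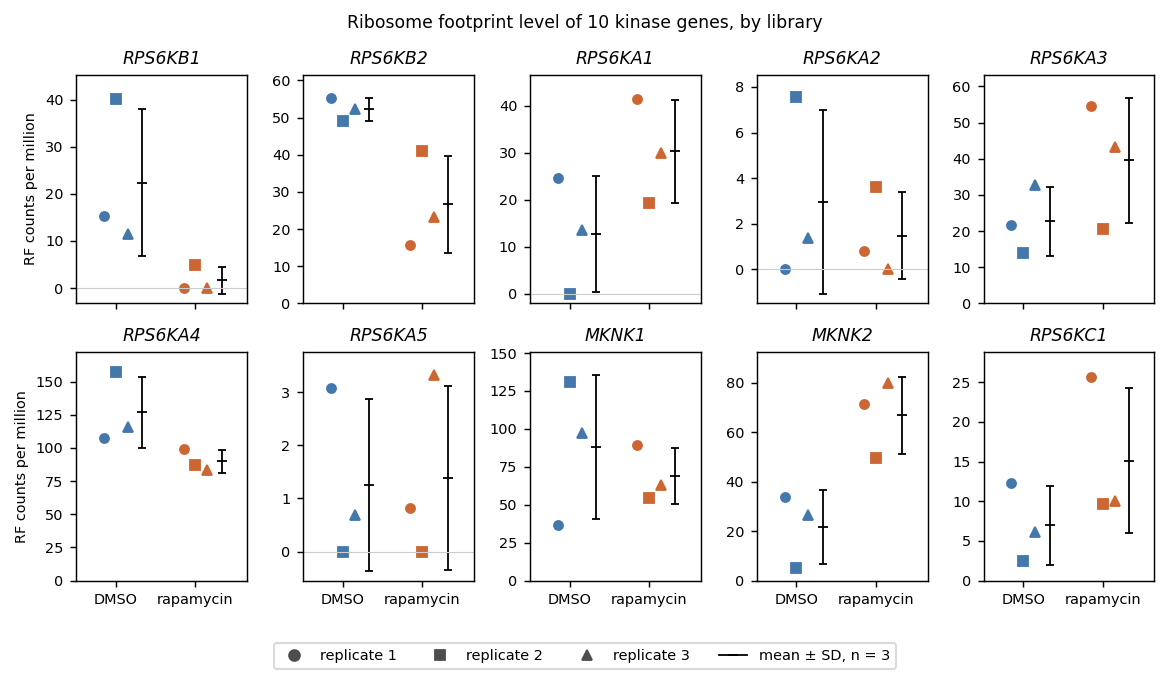
RF level in CPM, scaled by library size and TMM, of each kinase gene in the 3 DMSO (blue) and 3 rapamycin (orange) libraries, with the mean ± SD beside them, and an axis of its own in each panel. RPS6KB1, RPS6KB2 and RPS6KA4 have all treated points below all control points, and MKNK2 has them all above. The squares of DMSO replicate 2 are the lowest control points for RPS6KB2, RPS6KA1, RPS6KA3, RPS6KA5, MKNK2 and RPS6KC1.

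MKNK2 was the one tested kinase gene whose RF level was higher in every treated library than in every control library. MKNK2 (MNK2; ENSG00000099875, chromosome 19, 2037464 to 2051243), which phosphorylates eIF4E, gave 11, 4 and 39 RF counts in DMSO replicates 1, 2 and 3, or 33.8, 5.03 and 26.5 CPM. It gave 86, 41 and 24 counts in rapamycin replicates 1, 2 and 3, or 71.3, 49.6 and 79.8 CPM. The groups did not overlap, and DMSO replicate 2 was far the lowest. The means were 21.8 ± 15.0 and 66.9 ± 15.6 CPM (SD, n = 3), and the log2 fold change was 1.66 in RF (SE 0.59, unadjusted p = 0.0119, adjusted p = 0.9999, edgeR) and 1.64 in TE (SE 0.46, unadjusted p = 0.00315, adjusted p = 0.231). In TE, its 95% interval ran from 0.65 to 2.63, or from 1.57-fold to 6.21-fold. Without DMSO replicate 2, the log2 fold change in TE was 1.15 (unadjusted p = 0.00231, adjusted p = 0.195), and it was 2.14 without DMSO replicate 3.

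The other eIF4E kinase, MKNK1 (MNK1; ENSG00000079277, chromosome 1, 47023079 to 47082515), had RF levels of 36.9, 131 and 97.1 CPM in DMSO and 89.5, 54.5 and 63.2 CPM in rapamycin replicates 1, 2 and 3. The treated libraries lay within the range of the controls. The log2 fold change in TE was -0.41 (SE 0.45, adjusted p = 0.752, edgeR), with a 95% interval of -1.38 to 0.56 that holds changes in both directions. DMSO replicate 2 was the highest library for MKNK1 and the lowest for MKNK2. Exons of MKNK1 share 195 bases with MKNK1-AS1 on the opposite strand and 101 bases with MOB3C on the same strand.

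Among the RSK genes, RPS6KA1 had an unadjusted p below 0.05 in TE, and its groups overlapped. RPS6KA1 (RSK1; ENSG00000117676, chromosome 1, 26856252 to 26901521), an ERK-activated kinase of S6 and other proteins, gave 8, 0 and 20 RF counts in DMSO replicates 1, 2 and 3 and 50, 16 and 9 in rapamycin replicates 1, 2 and 3. These counts correspond to 24.6, 0 and 13.6 CPM and to 41.5, 19.4 and 29.9 CPM. DMSO replicate 1 lay above rapamycin replicate 2, and the 0 in DMSO replicate 2 allows up to 3.40 CPM without TMM. The means were 12.7 ± 12.3 and 30.3 ± 11.0 CPM (SD, n = 3), with a log2 fold change of 1.37 in RF (SE 0.91, adjusted p = 0.9999, edgeR) and 1.56 in TE (SE 0.70, unadjusted p = 0.0430, adjusted p = 0.379). In TE, it was 1.06 without DMSO replicate 2 (unadjusted p = 0.0259), 1.10 without rapamycin replicate 1 (unadjusted p = 0.225) and 1.45 without DMSO RNA replicates 1 and 2 (unadjusted p = 0.190).

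RPS6KA3 (RSK2; ENSG00000177189, chromosome X, 20168029 to 20285637), another ERK-activated kinase, had RF levels of 21.5, 13.8 and 32.6 CPM in DMSO and 54.7, 20.6 and 43.2 CPM in rapamycin replicates 1, 2 and 3. The treated libraries were mostly higher, but rapamycin replicate 2 lay below DMSO replicates 1 and 3. The log2 fold change in TE was 0.68 (SE 0.46, adjusted p = 0.576, edgeR). It was 0.17 without rapamycin replicate 1 and 1.23 without DMSO replicate 3. RPS6KA2 (RSK3; ENSG00000071242, chromosome 6, 166822852 to 167319939) gave RF counts of 0, 6 and 2 in control and of 1, 3 and 0 in treated cells, so that a change in either direction was not detectable at this depth (log2 fold change in TE -1.02, 95% interval -3.41 to 1.37).

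Of the MSK genes only RPS6KA4 had a measurable RF level. RPS6KA4 (MSK2; ENSG00000162302, chromosome 11, 64126620 to 64139687), a nuclear kinase of histones and CREB, had RF levels of 108, 157 and 115 CPM in DMSO and 99.5, 87.1 and 83.2 CPM in rapamycin replicates 1, 2 and 3. The treated libraries all lay below the controls, by a small gap between DMSO replicate 1 and rapamycin replicate 1. The means were 127 ± 26.6 and 89.9 ± 8.51 CPM (SD, n = 3). Its log2 fold change in TE was -0.44 (SE 0.26, unadjusted p = 0.113, adjusted p = 0.505, edgeR), and it stayed between -0.55 and -0.23 when each replicate was left out. RPS6KA5 (MSK1; ENSG00000100784, chromosome 14, 91314205 to 91526985), the other MSK, gave RF counts of 1, 0 and 1 under both treatments, too few for a comparison.

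RPS6KC1 (ENSG00000136643, chromosome 1, 213224575 to 213448117), an S6 kinase relative with a lipid-binding PX domain, gave 4, 2 and 9 RF counts in DMSO replicates 1, 2 and 3 and 31, 8 and 3 in rapamycin replicates 1, 2 and 3. Scaled to library size, these were 12.3, 2.51 and 6.11 CPM and 25.7, 9.68 and 9.98 CPM. Rapamycin replicate 1 was high, and the other treated libraries lay below DMSO replicate 1. The log2 fold change in TE was 1.52 (SE 0.61, unadjusted p = 0.0251, adjusted p = 0.331, edgeR), and it was 0.71 without rapamycin replicate 1 (unadjusted p = 0.327). This value therefore rested largely on that replicate.

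TE was also computed for each replicate, as log2 of RF CPM over the RNA CPM of the same number, with a prior count of 2. RPS6KB1 stood at -1.62, -0.40 and -1.95 in DMSO and -4.48, -2.84 and -4.45 in rapamycin replicates 1, 2 and 3. MKNK2 stood at -2.64, -4.92 and -2.94 in DMSO and -1.61, -2.14 and -1.52 in rapamycin. Both genes were separated between treatments, in opposite directions. Of the 9 tested genes, 3 had every treated replicate below every control (RPS6KB1, RPS6KB2 and RPS6KA4), where 6.19% of all genes tested did, and 1 had every treated replicate above (MKNK2), where 4.8% did. In RF alone the same 4 genes were separated, 3 below and 1 above, where 4.21% and 5.24% of all genes tested were. Each of these separations has an exact permutation p of 0.1, two-sided, the smallest that 3 replicates against 3 can give. In the edgeR test of RF alone, 0 of the 9 passed an adjusted p of 0.05 (0% of all genes). DESeq2 and limma voom also called 0 of the 9. Of all 13329 genes, DESeq2 called 1 lower and 4 higher in RF, and limma voom called 0. The following values are from edgeR. RPS6KB1 was lower at an unadjusted p below 0.05, as were 1.92% of all genes, and MKNK2 was higher, as were 1.76%.

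**Figure D3:**
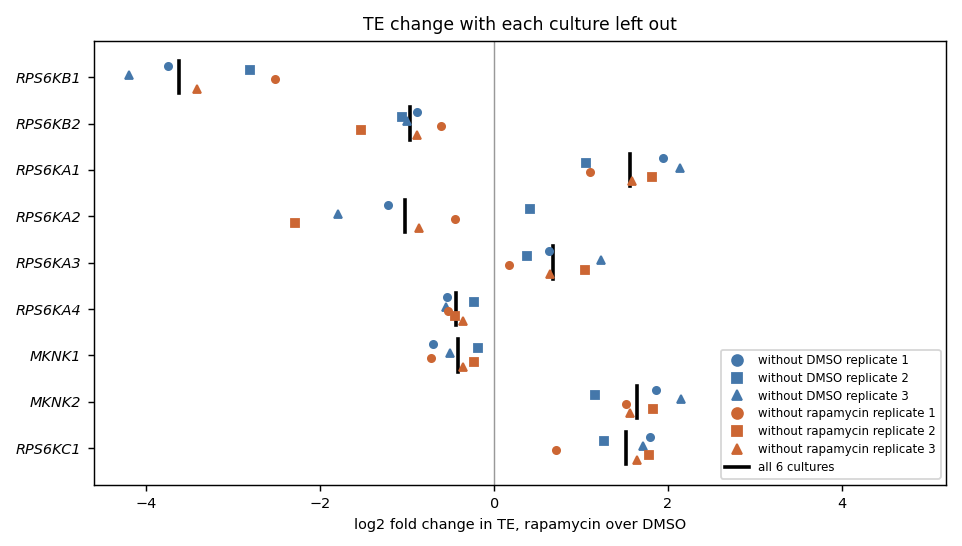
Log2 fold change in TE, rapamycin over DMSO, of the 9 tested kinase genes with all 6 replicates (black bar) and with each replicate left out (symbols); the value of RPS6KB1 without rapamycin replicate 2, where all treated counts are 0, is not drawn. RPS6KA2 crosses 0 without DMSO replicate 2, and RPS6KC1 moves from 1.52 to 0.71 without rapamycin replicate 1.

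Total RNA of the kinase genes differed little between treatments. RPS6KB1 was at 54.8, 56.2 and 54.0 CPM in DMSO and 54.5, 52.0 and 53.2 CPM in rapamycin replicates 1, 2 and 3. MKNK2 was at 226, 227 and 223 CPM in DMSO and 225, 230 and 236 CPM in rapamycin, and RPS6KA1 at 76.5, 73.5 and 70.2 CPM in DMSO and 69.2, 70.6 and 73.3 CPM in rapamycin. The groups overlapped for all 9 tested genes, while 14.8% of all genes tested did not overlap. Log2 fold changes of the 9 ranged from -0.05 to 0.17, the highest for RPS6KA2 (95% interval -0.03 to 0.36). None of the 9 had an unadjusted p below 0.05 in edgeR, against 2.51% of all genes lower and 3.32% higher. None passed an adjusted p of 0.05 in edgeR, DESeq2 or limma voom. Of all 13329 genes, edgeR and limma voom called 0 in total RNA, and DESeq2 called 4 lower and 25 higher. The direction of these small values changed between settings for RPS6KA1, RPS6KA3, RPS6KB2, RPS6KC1 and MKNK1. RPS6KA5, not among the genes tested, was at 3.32, 2.76 and 2.96 CPM in DMSO and 3.58, 3.33 and 3.70 CPM in rapamycin, with all treated libraries above all controls (exact permutation test, two-sided p = 0.1).

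**Figure D4:**
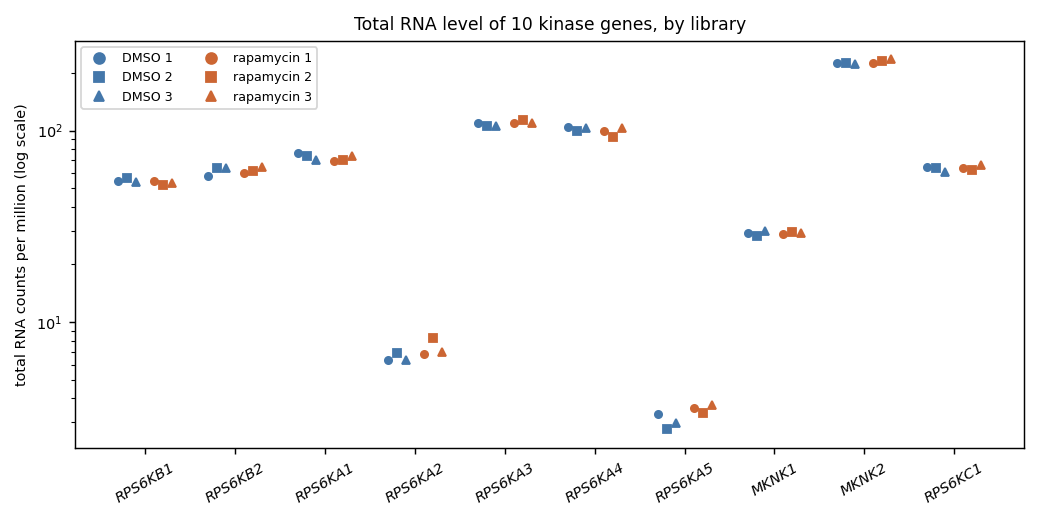
Total RNA level in CPM (log scale) of each kinase gene in the 3 DMSO (blue) and 3 rapamycin (orange) libraries. Libraries of both treatments lie together for each gene, from RPS6KA5 near 3 to MKNK2 at 223 CPM or more.

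Levels of the kinases were compared per length of coding sequence. In DMSO, the RF level per kb of the longest coding sequence was 63.3 ± 34.1 CPM for MKNK1, 54.7 ± 11.5 for RPS6KA4 and 36.1 ± 2.2 for RPS6KB2 (SD, n = 3). It was 15.6 ± 10.7 CPM per kb for MKNK2, 14.2 ± 9.88 for RPS6KB1, 10.2 ± 4.25 for RPS6KA3 and 5.70 ± 5.52 for RPS6KA1. The lowest were RPS6KC1 at 2.18 ± 1.55, RPS6KA2 at 1.30 ± 1.77 and RPS6KA5 at 0.52 ± 0.67 CPM per kb. In this order, RPS6KA4 and RPS6KB2 differed beyond their SDs, as did RPS6KB2 and MKNK2, and the other neighbours did not. The order depends on the length used: with the median coding sequence of each gene's isoforms, RPS6KB2 came to 126, MKNK1 to 119 and MKNK2 to 46.0 CPM per kb.

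In total RNA the order was another one. MKNK2 had the highest level, 95.9 ± 4.99 FPKM (fragments per kilobase of transcript, scaled to depth by the authors; SD, n = 3) in DMSO, followed by RPS6KB2 at 32.6 ± 1.60, RPS6KA4 at 30.2 ± 0.61, RPS6KA3 at 20.3 ± 0.25 and RPS6KA1 at 19.2 ± 1.15 FPKM. MKNK1, RPS6KC1 and RPS6KB1 lay between 15.8 and 16.7 FPKM, and RPS6KA2 and RPS6KA5 at 1.69 and 0.93 FPKM. Neighbours in this order differed beyond their SDs, except RPS6KA3 and RPS6KA1, and except MKNK1, RPS6KC1 and RPS6KB1 among themselves. By the longest coding sequence, MKNK2 therefore carried few footprints for its RNA level in DMSO. Its ratio of RF CPM per kb to FPKM was at the 4.14th percentile of 10531 genes. RPS6KC1 lay at the 2.88th and RPS6KA1 at the 11.8th percentile, while RPS6KA4 lay at the 76.0th and MKNK1 at the 92.0th. RPS6KB1 and RPS6KB2 were near the middle, at the 47.4th and 57.0th percentile. All these percentiles are of DMSO and of the longest coding sequence, and the RF level per kb depends on that length.

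**Figure D5:**
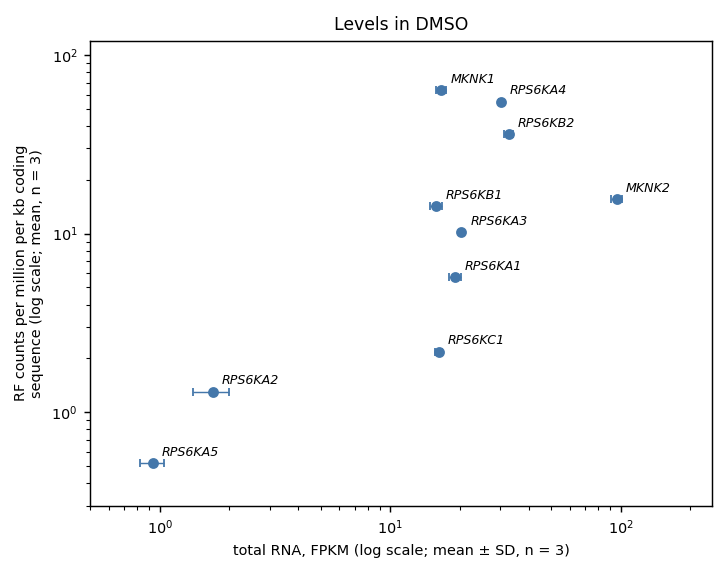
Mean RF level in CPM per kb of the longest coding sequence against mean total RNA in FPKM (± SD, n = 3) for the 10 kinase genes in DMSO, both axes on a log scale. MKNK1 and MKNK2 lie apart, with MKNK2 at 95.9 FPKM and 15.6 CPM per kb and MKNK1 at 16.7 FPKM and 63.3 CPM per kb.

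Total RNA was also resolved into isoforms, which can encode different proteins. MKNK2 RNA was mostly MKNK2-202 among the isoforms matched to the annotation, at 38.7 ± 0.88 FPKM in DMSO and 38.9 ± 1.27 in rapamycin (SD, n = 3). MKNK2-202 encodes the 414-codon form (MNK2b), which lacks the MAP kinase binding end of the protein, and MKNK2-201, the 465-codon form (MNK2a), was at 0.17 FPKM in DMSO. Isoforms that could not be matched held 40.7% of the MKNK2 level, 45.4% of that of RPS6KA3, 47.4% of that of RPS6KA5 and 14.3% of that of RPS6KA2. RPS6KB1 RNA was 39.9 ± 1.70% RPS6KB1-201 (525 codons), 22.1 ± 2.13% RPS6KB1-204 (502 codons) and 11.0 ± 2.06% RPS6KB1-202 (472 codons) in DMSO.

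The larger differences in isoform share lay in the low genes RPS6KA2 and RPS6KA5, and their groups overlapped. RPS6KA2-203 held 17.9 ± 31.0% of the RPS6KA2 level in DMSO and 0.41 ± 0.69% in rapamycin (SD, n = 3, exact permutation p = 0.7), and the share of RPS6KA5-204 differed by -12.9 percentage points (exact permutation p = 0.4). Of 27 kinase isoforms with at least 10% of their gene's level in either treatment, 2 had shares that did not overlap between treatments, and both belonged to RPS6KB1. By the same rule, 9.43% of 43496 isoforms over all genes did not overlap. The share of RPS6KB1-202 was 7.28 ± 1.53% in rapamycin, a difference of -3.75 percentage points from DMSO, and that of RPS6KB1-201 was 42.8 ± 0.61%, a difference of 2.90 points (exact permutation p = 0.1 each). Of 30 kinase isoforms with a mean of at least 1 FPKM, 1 had an unadjusted p below 0.05 in limma's test on log2(FPKM + 1), where 4.74% of all 38790 isoforms did, and 0 passed an adjusted p of 0.05, where 0.00773% did. That 1 isoform was RPS6KB1-202, with a log2 fold change of -0.39 on the log2(FPKM + 1) scale (SE 0.14, unadjusted p = 0.0292, adjusted p = 0.990). The median size of the log2 fold change over the 30 isoforms was 0.07.

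Genes around the kinases were read from lists made by role. Of 19 upstream genes (mTORC1 and its regulators, RAF, MEK, ERK and p38 kinases), 2 were lower and 1 was higher in TE at an unadjusted p below 0.05, beside 6.42% lower and 6.17% higher over all genes tested, and 0 passed an adjusted p of 0.05. RPTOR, the substrate-binding subunit of mTORC1, had a log2 fold change in TE of -1.34 (SE 0.58, unadjusted p = 0.0361, adjusted p = 0.358, edgeR), with the groups overlapping. TSC1, an inhibitor of mTORC1, had 2.08 (SE 0.63, unadjusted p = 0.00521, adjusted p = 0.232) with RF counts of 0, 2 and 9 in control and of 19, 9 and 9 in treated replicates 1, 2 and 3. The groups of TSC1 did not overlap in TE. The median log2 fold change of the list was -0.06, the same as over all genes tested.

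Of 21 substrates and partners of these kinases, 0 were lower and 1 was higher at an unadjusted p below 0.05, beside the same 6.42% and 6.17% of all genes. The highest by that measure was RICTOR, a subunit of mTORC2 and a target of S6K1, at 1.57 (SE 0.62, adjusted p = 0.324, edgeR). RPS6, the S6 protein itself, was at -0.21 (SE 0.20, adjusted p = 0.701) from 1985 RF counts. The median of this list was 0.24, with 16 genes above 0 and 5 below. Of 14 related kinases 12 were tested, and against the same 6.42% and 6.17%, 0 were lower and 1 was higher at an unadjusted p below 0.05 (RPS6KL1, an S6 kinase relative, 1.50, SE 0.65, adjusted p = 0.359), and MAPKAPK2, a p38-activated kinase, had the smallest p among those below 0 (-0.72, SE 0.48, adjusted p = 0.568). The median was 0.17. For the 9 tested kinases themselves the median change was -0.41 on the same scale, with 5 below 0 and 4 above, against -0.06 over all genes tested.

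For RPS6KB1, RPS6KA1 and MKNK2, the genes with the most alike RF pattern were sought over the 6 RF libraries, by Pearson's r of log2 CPM among 8733 genes with at least 50 RF counts. The points share libraries and depth, so r is a description. The closest to RPS6KB1 were MRPS31, KLF10 and THSD7B (r = 0.992, 0.992 and 0.988), and 110 genes had r above 0.9. The closest to RPS6KA1 were UTP23, RNF34 and DNPH1 (r = 0.996, 0.992 and 0.991), with 359 genes above 0.9. The closest to MKNK2 were LIG3, INPP5K and TMEM2 (r = 0.995, 0.995 and 0.990), with 272 genes above 0.9. All 6 genes named for RPS6KA1 and MKNK2 had their lowest count in DMSO replicate 2, the library that stood apart, whose part in these patterns was not tested.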

How the data were processed

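Ribosome footprints (RF) and total RNA of PANC-1 cells were sequenced. Per the labels and the study's methods, the authors removed low-quality RF reads, linker sequence and ribosomal RNA, aligned the rest to GRCh37 with HISAT2, and deposited raw counts of unique alignments to the exons of each protein-coding gene from featureCounts. For total RNA, the authors deposited gene and isoform FPKM from Cufflinks 2.2.1 and cuffnorm. They also deposited a normalized signal, which is fragments divided by cuffnorm's size factor. Columns with the authors' own TE comparison (ratios, fold changes and p-values) were not used. Strand settings are not given in the sources used here.

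Counts were scaled by TMM within each library type and tested in edgeR 4.0.16 (glmQLFit, robust) under R 4.3.3 at a minimum of 10 counts per library type. Isoforms were tested with limma 3.58.1 (trend, robust) on log2(FPKM + 1) at a mean of at least 1 FPKM. p-values were Benjamini-Hochberg adjusted over all features tested, with a threshold of 0.05. Single values used two-sided exact permutation tests in Python 3.11. RiboDiff, used by the study, was replaced by edgeR. DESeq2 1.42.0, limma voom, other filters and scalings, replicate blocks and leaving out replicates were alternatives. Leaving out DMSO RNA replicates 1 and 2 was chosen after seeing the data. Tests were checked on simulated data, where the TE test called unchanged genes more often than its threshold allows. Gene identifiers were matched to a GENCODE annotation of GRCh37, 19545 of 20212. All 10 kinases were named. Of each gene list, the gene with the smallest p in either direction was named, and so were the 3 genes most like RPS6KB1, RPS6KA1 and MKNK2. Members and lists were chosen with earlier results of these data known.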

Additional observations from a re-analysis of the deposited data

How the results depend on the processing

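No adjusted p of the 9 tested kinases was below 0.05 in TE under edgeR with all replicates. The setting that moved most calls was DESeq2's Wald test, with 582 genes lower, 654 higher and 4 kinases called, where the log2 fold change was -3.66 for RPS6KB1 and 1.60 for MKNK2. With each replicate left out, genes called lower ranged from 0 to 374 and higher from 0 to 70 (both highest without DMSO replicate 3), and kinases called from 0 to 1. Kinases at an unadjusted p below 0.05 ranged from 2 (without rapamycin replicate 1, 9.65% of all genes) to 6 (without DMSO replicate 3, 22.8%). RPS6KB1 ranged in TE from -12.84, a fitted value against 0 treated counts, to -2.52. Counts of kinases at an unadjusted p below 0.05 also differed between the other settings. They numbered 3 with limma voom, where 6.74% of all genes were below that p, and 2 with the replicate block, where 10.5% were. With a replicate block that joins the RF and RNA library of 1 number, 2 kinases and 3.56% of all genes were below an unadjusted p of 0.05. Without DMSO RNA replicates 1 and 2, 2 kinases and 2.99% of all genes were. With the replicate block, 0 genes were lower and 1 was higher in TE. The edgeR tests with all replicates and no block used the numbers as names only. The reason was that same-numbered samples did not deviate together between treatments (r of deviations from -0.22 to -0.061). TE per replicate, and the counts of genes separated in it, did pair the RF and RNA library of 1 number. Leaving out a replicate dropped the RF and the RNA library of that number. The r between treatments does not exclude a pairing. The RF and RNA library of 1 number, assumed to be of the same cells, gave r of only -0.096 to 0.0081. In RF and in total RNA alike, 0 of 6 samples correlated best with their own number. The cause of these differences was not tested.

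Directions turned mainly where values were close to 0. With each replicate left out, RPS6KA2 ranged from -2.29 to 0.41 in TE, from -2.15 to 0.68 in RF and from -0.90 to 0.054 in TE per replicate, highest each time without DMSO replicate 2. TE per replicate ranged from -0.50 to 0.072 for RPS6KA5 (0.046 without rapamycin replicate 2) and from -0.73 to 0.17 for MKNK1, and the RPS6KA4 over RPS6KA5 ratio from -1.34 to 0.13. In total RNA the same omissions gave -0.041 to 0.026 for RPS6KB2, -0.0099 to 0.037 for RPS6KC1 and -0.016 to 0.031 for MKNK1. RPS6KB2 was at -0.012 with a minimum of 1 count, -0.021 on the normalized signal and -0.036 without DMSO RNA replicates 1 and 2. MKNK1 was at -0.0055, -0.013 and -0.032 under these 3 settings and -0.071 on FPKM. RPS6KC1 and RPS6KA3 were at -0.0025 and -0.00077 on FPKM, and RPS6KA1 at 0.016 without DMSO RNA replicates 1 and 2. The other 128 TE, 106 RF and 119 RNA values of single kinases kept their direction and their side of the threshold. RF depth limited these values: 5 of the 10 kinases had at most 103 RF counts over all 6 libraries.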

Other observations

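RPS6KA6 (RSK4), a relative of the RSK genes that was singled out after its values were seen, had few counts in both library types, although the RNA libraries were far deeper. In RF its counts were 4, 0 and 14 in control and 6, 8 and 2 in treated replicates 1, 2 and 3. In total RNA they were 7, 3 and 24 in control and 10, 10 and 27 in treated replicates. The log2 fold change in TE was -0.50 (SE 1.48, adjusted p = 0.919, edgeR).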
